A study of Rattus norvegicus with 6 samples.

Results

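The insulin-like growth factor (IGF) genes of neonatal rat cardiac fibroblasts (NRCFs) were examined, that is the ligands Igf1 and Igf2, the receptors Igf1r and Igf2r, and the binding proteins Igfbp2, Igfbp3, Igfbp4, Igfbp5, Igfbp6 and Igfbp7. These 10 genes were found by symbol among the 21857 symbols of the count files. NRCFs are primary fibroblasts grown from the hearts of newborn Sprague-Dawley rats, at most 3 days old, although the sample labels give the strain as "Noway". The Vector group (3 libraries, genotype label WT) had been transfected with the Vector plasmid, and the FTO group (3 libraries, genotype label FTO overexpression) with a plasmid carrying FTO, the demethylase that takes the N6-methyladenosine mark off RNA. No other treatment is given for either group, and nothing says whether the replicates came from separate cultures or animals, so p-values measure only the spread between these libraries.

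IGF1 and IGF2 are small secreted relatives of insulin that drive growth, survival and matrix production through the receptor tyrosine kinase IGF1R. IGF2R, also the cation-independent mannose 6-phosphate receptor, takes IGF2 into the cell for breakdown and carries lysosomal enzymes. The binding proteins hold IGFs outside the cell, and most can either keep the ligand from the receptor or deliver it, depending on cleavage and on binding to matrix. In the heart, fibroblasts and macrophages are known sources of IGF1.

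A single binding protein gene, Igfbp3, stood far above the others in its change. It was 52.9-fold higher in the libraries labelled FTO, whereas Igf2 and Igfbp2 were 3.26-fold and 3.64-fold lower. The other members changed by less than a log2 unit. Igf1 was higher, Igf1r, Igf2r, Igfbp4 and Igfbp5 were lower, and neither Igfbp6 nor Igfbp7 passed the test. In counts, 8 of the 10 members passed an adjusted p-value under 0.05 in the quasi-likelihood test of edgeR, 2 of them higher and 6 lower. The background was high, since 65.9% of all 12941 genes tested passed, 33.2% as higher and 32.8% as lower, so the number of members called is not particular to them. The median log2 fold change was -0.25 over the members and 0.00 over all genes.

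**Figure D1:**
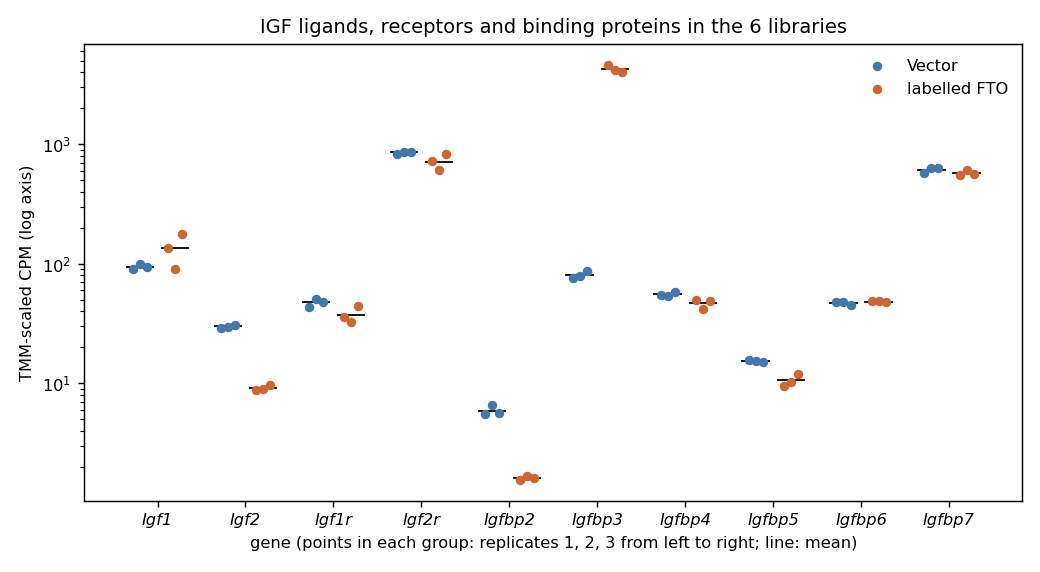
TMM-scaled CPM (log axis) of the 10 members in the 3 Vector libraries (blue) and the 3 libraries labelled FTO (orange), with the mean of each group as a line. Igfbp3 lies at 75.8 to 87.0 CPM in Vector and at 3997 to 4614 CPM in the libraries labelled FTO, while Igf1 spreads from 90.3 to 178 CPM within the latter.

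The level of Fto was compared first, as a check of the labels. It was 87.8, 89.6 and 87.4 CPM (counts scaled to library size and composition with the TMM factors of edgeR) in Vector replicates 1, 2 and 3, and 93.2, 90.8 and 92.9 CPM in the libraries labelled FTO. Its log2 fold change was 0.06 (SE 0.0469, adjusted p = 0.239 in edgeR), so a rise of Fto was not detected, and directions below are those of the libraries labelled FTO. The fibroblast markers summed to 38150 to 38930 CPM in Vector and 20250 to 21370 CPM in the libraries labelled FTO, and all 10 of them were detected. Col1a1 (25809 to 8268 CPM in the group means) and Col3a1 (10699 to 3338 CPM) made up most of this sum and were lower, while Dcn (47.0 to 5611 CPM), Pdgfra (173 to 976 CPM) and Lum (48.7 to 432 CPM) were higher. Total counts ran from 13178952 to 17857999 per library.

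Ligands were examined first. Igf2, the fetal growth factor of the pair, was at 29.1, 29.7 and 30.5 CPM in the Vector libraries and at 8.77, 8.84 and 9.66 CPM in those labelled FTO. The groups were far apart and each was tight. The log2 fold change was -1.70 (SE 0.0867, 95% confidence interval -1.89 to -1.52, adjusted p = 1.11e-10 in edgeR).

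Igf1 behaved differently. It was at 90.6, 98.4 and 94.0 CPM in the Vector libraries and at 135, 90.3 and 178 CPM in replicates 1, 2 and 3 labelled FTO. The groups overlapped, because FTO replicate 2 lay just under the lowest Vector library while the other 2 lay above all of Vector. The log2 fold change of 0.52 (SE 0.156, 95% confidence interval 0.18 to 0.85) had an adjusted p-value of 0.00884 in edgeR and of 0.0952 in DESeq2. Leaving out FTO replicate 3 brought it to 0.26 (adjusted p = 0.0333 in edgeR), and leaving out FTO replicate 2 raised it to 0.74 (adjusted p = 2.74e-08 in edgeR). The highest value of Igf1 was 1.97 times the lowest among the libraries labelled FTO, a ratio reached by 0.179% of the 10042 genes with a mean of at least 100 counts, against 1.09 times among the Vector libraries, reached by 52.1%. Within the FTO group Igf1 was among the most variable of these transcripts, and within Vector it was near the middle.

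As macrophages make IGF1, their markers were set beside it. In bulk RNA, fewer cells of a type and less RNA per cell cannot be told apart. The 11 macrophage markers summed to 760, 738 and 751 CPM in Vector replicates 1, 2 and 3 and to 233, 239 and 212 CPM in those labelled FTO, with 10 lower and 1 (Adgre1) higher. Of all genes tested, 32.8% were lower and 33.2% higher. No macrophage marker was at 0 in all libraries. In the libraries labelled FTO, C1qb and C1qc were at 0.14 CPM or less, while Cd14, Cd68 and Mrc1 had means of 59.6, 51.0 and 47.5 CPM. FTO replicate 3, with the highest Igf1, had the lowest macrophage sum. The part of macrophages in the level of Igf1 was not tested.

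In reads, the ligand genes together took 120, 128 and 125 CPM in the Vector libraries and 144, 99.2 and 188 CPM in those labelled FTO. The ratio of the group means was 1.16, and it was 0.978 without FTO replicate 3, so no direction is given to the sum. The share of these reads that fell on Igf2 went from 23.2% to 24.5% in Vector down to 5.15% to 8.91% in the libraries labelled FTO. These are shares of reads and not of molecules, since transcript lengths were not used.

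Receptors were lower, by small amounts. Igf1r, the signalling receptor, was at 43.5, 50.7 and 47.8 CPM in the Vector libraries and at 36.0, 32.3 and 43.9 CPM in replicates 1, 2 and 3 labelled FTO. FTO replicate 3 reached into the Vector range. The log2 fold change was -0.33 (SE 0.0952, 95% confidence interval -0.54 to -0.13, adjusted p = 0.0065 in edgeR). Igf2r was at 822, 866 and 865 CPM against 719, 605 and 819 CPM. Its groups were separated only by the gap between Vector replicate 1 and FTO replicate 3. The log2 fold change was -0.25 (SE 0.0763, 95% confidence interval -0.41 to -0.09), with an adjusted p-value of 0.00924 in edgeR and 0.0743 in DESeq2. Without FTO replicate 2 it was -0.14 (adjusted p = 0.00851 in edgeR).

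Igf1, Igf1r and Igf2r shared the same order within the FTO group, lowest in replicate 2 and highest in replicate 3. This order held for 24.3% of the 10042 genes with a mean of at least 100 counts. The genomic span of the genes moved with it. When the 9343 of these genes (93.0%) with a span in the RefSeq annotation of GRCr8 were ranked by span into 10 bins of equal size, the median log2 ratio of FTO replicate 3 to replicate 2 went from -0.11 in the bin of shortest genes to 0.14 in that of the longest. The median log2 fold change between the groups went the opposite way, from 0.15 to -0.26. Igf1r lay in bin 10, of the longest genes, and differed from the median log2 fold change of that bin by -0.08. Igf2r, in bin 9, differed from its bin by -0.11, and Igf1, in the same bin, by 0.66. Igfbp4 and Igfbp5, both in bin 3, differed by -0.36 and -0.64. The part of gene span in these changes was not tested.

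**Figure D2:**
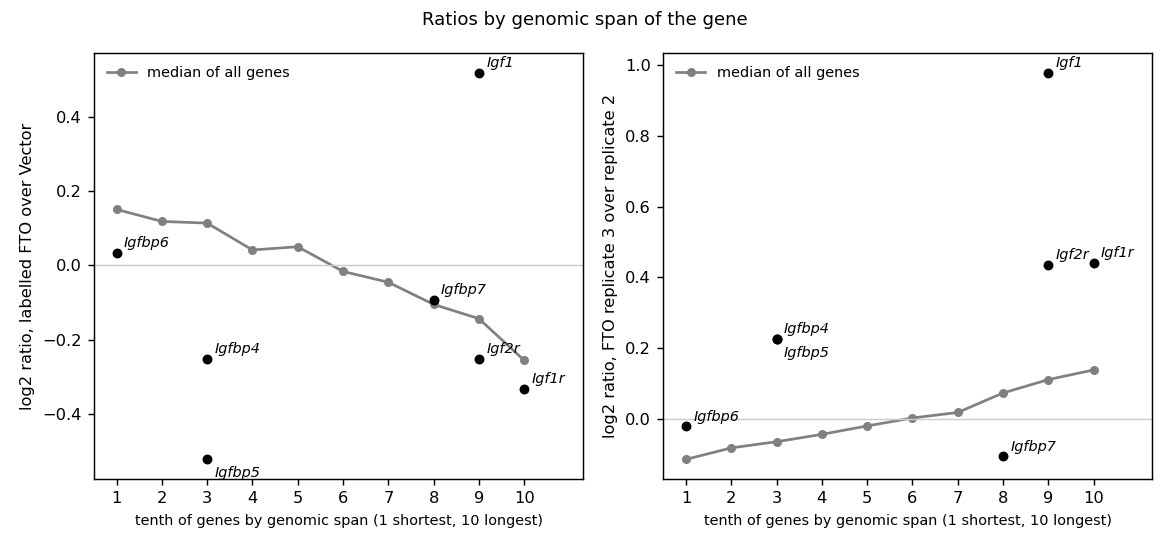
Log2 ratio of the groups (left) and of FTO replicate 3 over replicate 2 (right) against the bin of genomic span, 1 holding the shortest genes and 10 the longest. Grey points are medians of 934 or 935 genes and black points are members with small changes. The grey line falls from 0.15 to -0.26 on the left and climbs from -0.11 to 0.14 on the right, with Igf1r and Igf2r near or below it on the left and Igf1 above it on both sides.

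Among the binding proteins, Igfbp3 carried the change. IGFBP3 is the main IGF carrier of blood, where it forms a complex with the acid-labile subunit, and it is also secreted by fibroblasts. It was at 75.8, 79.2 and 87.0 CPM in the Vector libraries and at 4614, 4188 and 3997 CPM in replicates 1, 2 and 3 labelled FTO, from 1036 to 71564 counts. No library of either group came near the other group. The log2 fold change was 5.72 (SE 0.0685, adjusted p = 4.12e-18 in edgeR), a ratio of 52.9 with a 95% confidence interval of 47.8 to 58.5. By fitted log2 fold change it ranked 103 from the highest of the 12941 genes tested. Over 13 alternative settings the log2 fold change of Igfbp3 ran from 5.66 to 5.78.

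Igfbp2, a carrier typical of fetal tissue, moved the other way. It was at 5.49, 6.51 and 5.61 CPM in the Vector libraries and at 1.54, 1.66 and 1.62 CPM in those labelled FTO, from 22 to 97 counts. The groups did not overlap. The log2 fold change was -1.86 (SE 0.187, 95% confidence interval -2.26 to -1.47, adjusted p = 3.86e-07 in edgeR), with the largest SE of the members.

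Igfbp5, which binds matrix and hydroxyapatite, was at 15.7, 15.3 and 15.0 CPM against 9.54, 10.3 and 12.0 CPM, a difference of -0.52 on the log2 scale (SE 0.107, adjusted p = 0.000561 in edgeR). Igfbp4, an inhibitory carrier cut by the protease PAPP-A, was at 54.9, 53.1 and 58.0 CPM against 49.6, 41.3 and 48.4 CPM. This was a difference of -0.25 on the log2 scale (SE 0.0714, adjusted p = 0.00622 in edgeR). Both fell without overlap of the groups, Igfbp4 by a gap smaller than the range of either group. Of the members, 6 did not overlap between the groups (Igf2, Igf2r, Igfbp2, Igfbp3, Igfbp4 and Igfbp5), next to 70.3% of all genes tested.

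The last pair showed no detected change. Igfbp6, which prefers IGF2 over IGF1, was at 47.4, 47.9 and 45.3 CPM against 48.2, 48.3 and 47.6 CPM. Its log2 fold change was 0.03 with a 95% confidence interval of -0.09 to 0.16 (adjusted p = 0.615 in edgeR). Among the libraries labelled FTO, 98.7% of the genes with a mean of at least 100 counts had a ratio of highest to lowest at least as large as that of Igfbp6. Igfbp7, a relative of low affinity for IGFs, was at 575, 627 and 633 CPM against 554, 605 and 563 CPM. Its log2 fold change was -0.09 (95% confidence interval -0.19 to 0.01, adjusted p = 0.1 in edgeR). It passed without Vector replicate 1 (adjusted p = 0.0317) and without FTO replicate 2 (adjusted p = 0.00915).

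**Figure D3:**
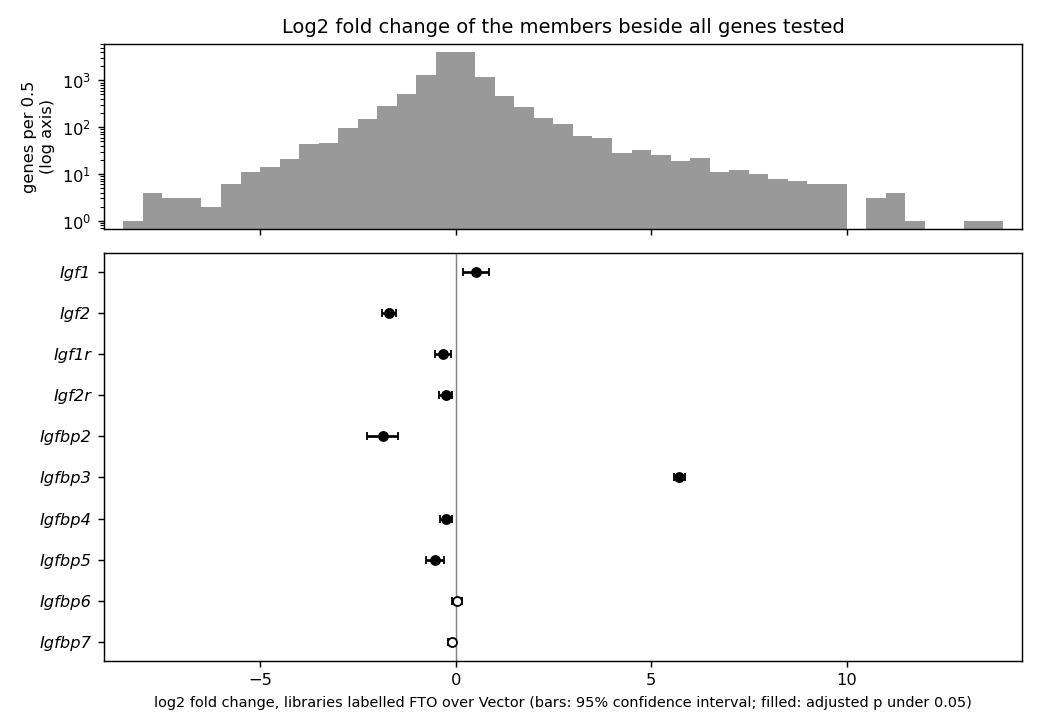
Histogram of the log2 fold change of all 12941 genes tested (top, log axis) above the members' log2 fold changes with 95% confidence intervals (bottom). Filled points had an adjusted p-value under 0.05; Igfbp3 at 5.72 lies in the right tail, Igf2 at -1.70 and Igfbp2 at -1.86 to the left, and the other 7 members between -0.52 and 0.52.

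At an absolute log2 fold change of at least 1 with an unadjusted p-value under 0.05, the cut-off in the study's methods, 3 members passed (Igfbp3, Igf2 and Igfbp2), next to 19.6% of all genes tested. These 3 passed under each of the 13 alternative settings.

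The binding protein genes were then added up in reads per library. Together the 6 genes took 774, 829 and 844 CPM in the Vector libraries and 5276, 4895 and 4669 CPM in those labelled FTO, a ratio of the means of 6.06. Without Igfbp3 they took 698, 750 and 757 CPM against 663, 707 and 672 CPM, a ratio of 0.926, and the groups overlapped. The share of these reads on Igfbp3 went from 9.55% to 10.3% in Vector up to 85.6% to 87.4% in the libraries labelled FTO, and that on Igfbp7 from 74.3% to 75.6% down to 10.5% to 12.4%. The fall in the share of Igfbp7 came with no detected change in its CPM.

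**Figure D4:**
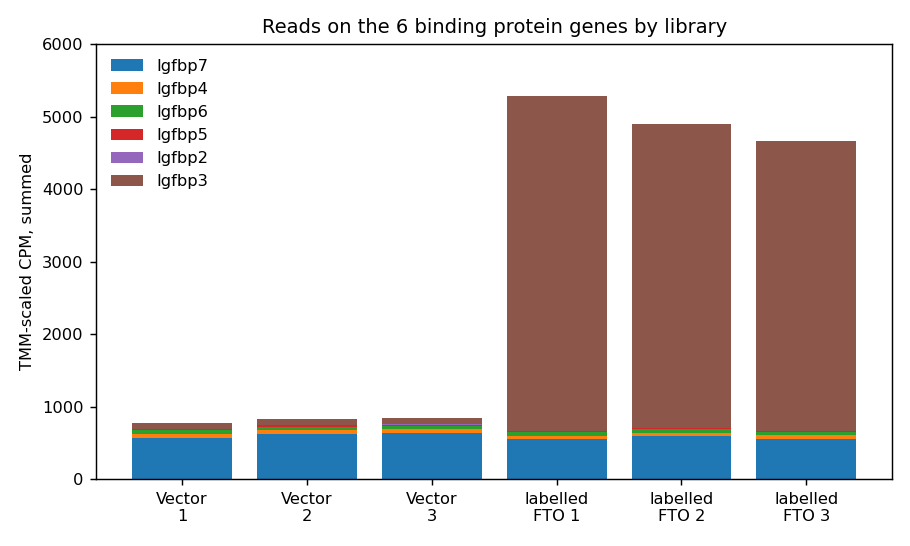
Stacked TMM-scaled CPM of the 6 binding protein genes in each library, read from a linear axis that starts at 0. The Vector columns reach 774 to 844 CPM and are mostly Igfbp7; the columns labelled FTO reach 4669 to 5276 CPM, of which Igfbp3 takes 85.6% to 87.4%.

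Some members are neighbours in the genome (GRCr8). Igfbp3 lies next to Igfbp1, another binding protein gene. Igfbp1 had 0 counts in all 6 libraries, where 3 counts would be 0.168 to 0.227 CPM. Igfbp2 and Igfbp5 lie next to each other and were both lower, with log2 fold changes of -1.86 and -0.52. Rpl37a, on the other side of Igfbp2, was at 0.19 (adjusted p = 0.00295 in edgeR). Mrpl23, the measured neighbour of Igf2, was at 0.13 and did not pass (adjusted p = 0.197 in edgeR).

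The sequence before the start sites of the 3 members with the largest changes is shown, as these are the transcripts whose level moved most. The windows are the 250 bases before each RefSeq start site in GRCr8, 5′ to 3′ on the strand of the gene. All 10 members matched a RefSeq promoter entry, with 2 start sites for Igf2. Capitals mark matches, on either strand, to a TATA box (TATANA), a GC box (GGGCGG), the core of the hypoxia response element (ACGTG) or an NF-κB site (GGGNNTTCC), and matches may overlap.
Igfbp3, chr14:86277945-86278194, minus strand: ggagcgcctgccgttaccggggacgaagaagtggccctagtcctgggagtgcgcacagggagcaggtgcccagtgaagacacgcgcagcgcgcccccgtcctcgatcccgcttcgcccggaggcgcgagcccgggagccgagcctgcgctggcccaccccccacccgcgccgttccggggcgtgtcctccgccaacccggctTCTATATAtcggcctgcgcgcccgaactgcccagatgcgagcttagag
Igfbp2, chr9:81864561-81864810, plus strand: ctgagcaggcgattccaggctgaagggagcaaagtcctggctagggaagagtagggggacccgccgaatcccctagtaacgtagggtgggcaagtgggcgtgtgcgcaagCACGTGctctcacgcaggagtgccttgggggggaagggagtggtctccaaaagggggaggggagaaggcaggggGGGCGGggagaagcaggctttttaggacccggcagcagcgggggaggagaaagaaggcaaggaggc
Igf2, upstream start site, chr1:207253981-207254230, minus strand: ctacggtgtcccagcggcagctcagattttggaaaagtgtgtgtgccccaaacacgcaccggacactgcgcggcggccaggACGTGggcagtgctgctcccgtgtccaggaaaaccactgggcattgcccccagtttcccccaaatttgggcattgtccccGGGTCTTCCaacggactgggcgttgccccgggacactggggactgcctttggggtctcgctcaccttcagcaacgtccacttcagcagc
Igf2, downstream start site, chr1:207250476-207250725, minus strand: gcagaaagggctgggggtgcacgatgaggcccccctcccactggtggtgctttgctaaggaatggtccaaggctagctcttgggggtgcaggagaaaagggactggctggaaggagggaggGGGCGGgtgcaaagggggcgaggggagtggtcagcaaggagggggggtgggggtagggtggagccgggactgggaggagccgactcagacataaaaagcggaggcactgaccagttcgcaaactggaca

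The window of Igfbp3 was rich in G and C (71.6%, against a median of 51.2% over all promoters) and held a pair of overlapping TATA matches, the nearer beginning 46 bases before the start site. TATA matches were in 24.2% of the 33469 promoter windows of the annotation. The window of Igfbp2 held the hypoxia core on both strands, in overlap, and a GC box. At least 1 hypoxia core on either strand was in 16.6% of all windows, and a GC box in 30.5%. The upstream window of Igf2 held a hypoxia element and an NF-κB match, the latter in 5.09% of all windows, and the downstream window held a GC box. No match to an AP-1 site (TGANTCA, in 6.34% of all windows), a STAT site (TTCNNNGAA, 7.67%), an interferon response element (GAAANNGAA, 8.12%) or a FOXO site (TGTTTAC, 3.21%) was in these 4 windows. The windows of the other members, with smaller or no detected changes, held matches too. Igf1r, Igf2r and Igfbp7 each held the hypoxia core and a GC box, and Igfbp4 held a TATA match. Igfbp6 held a FOXO match, and Igf1 and Igfbp5 held none of these motifs. G and C made up from 46.8% (Igf1) to 79.6% (Igf1r) of these windows, with 74.4% in Igfbp7. A match or its absence describes letters in its window only.

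The rest of the pathway was read from fixed lists, each described by the number of its genes past the adjusted threshold. Every list but the first described held calls in both directions. The background for each count is the 33.2% higher and 32.8% lower of all genes tested, and the median of all genes was 0.00. Rxfp1, Mtor, Ghr, Stat5a, Pappa2, Grb10, Ptprz1, Foxo3, Foxo4, Igf2bp1 and Igf2bp2 are named below after their values were seen.

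**Figure D5:**
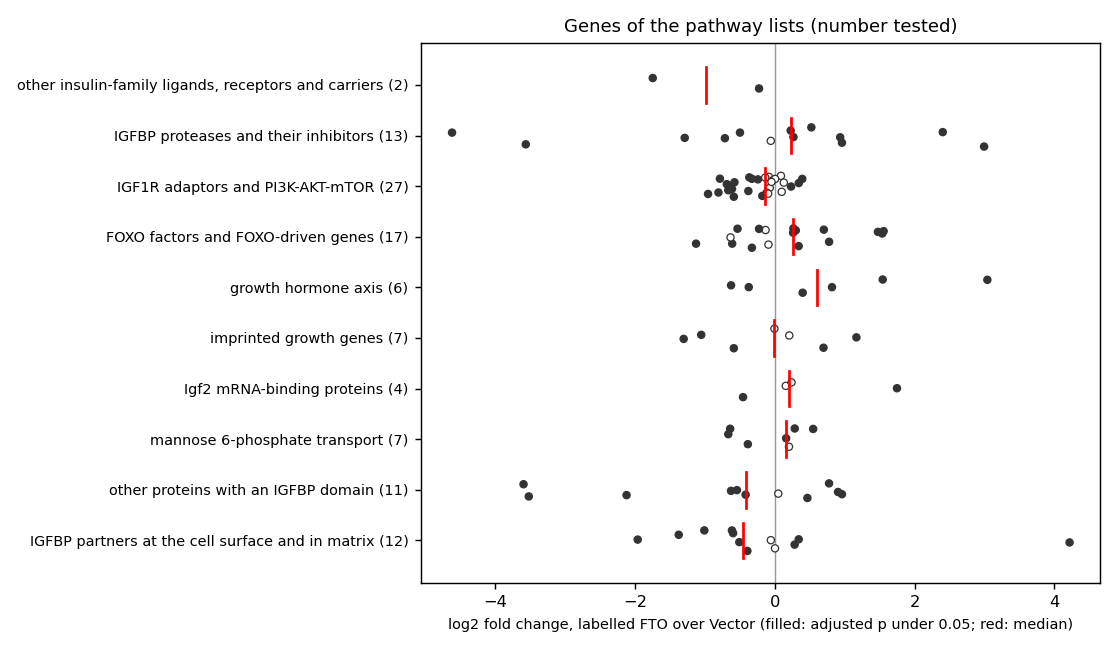
Log2 fold change of each tested gene in the 10 pathway lists, with filled points for an adjusted p-value under 0.05 and a red line at the list's median. The medians lie between -0.99 and 0.61, and all lists but that of other insulin-family genes hold filled points on both sides of 0.

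Other ligands, receptors and carriers of the insulin family were mostly not measurable. Of 13 listed genes, 2 were tested and both were lower, Rxfp1 (a relaxin receptor) at -1.75 and Insr (the insulin receptor) at -0.23 on the log2 scale. Insr was at 45.8 ± 3.42 and 39.0 ± 4.51 CPM (SD, 3 libraries each; adjusted p = 0.0264 in edgeR), with overlap, and did not pass without Vector replicate 2 or 3 or without FTO replicate 1 or 2. Ins1, Ins2, Igfbp1 and Igfbpl1 had 0 counts in all 6 libraries, and Igfals, the acid-labile subunit, had at most 2.

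IGFBP proteases and their inhibitors changed in most cases, with 7 higher, 5 lower and 1 not called of 13, and a median of 0.23. Plau, the urokinase that can act on IGFBPs through plasmin, fell from 82.0 ± 3.41 to 3.33 ± 0.918 CPM (log2 fold change -4.62). Adam12, a metalloprotease that cleaves IGFBP3 and IGFBP5, fell from 123 ± 1.84 to 50.1 ± 9.97 CPM (-1.29). Timp1, a metalloproteinase inhibitor, rose from 106 ± 1.96 to 844 ± 23.8 CPM (2.99), and Stc1, a stanniocalcin that inhibits PAPP-A, rose 5.29-fold to 106 ± 7.98 CPM (2.40). Pappa itself, which encodes the IGFBP4 protease PAPP-A, was at 39.3 ± 4.71 and 37.5 ± 8.07 CPM (-0.06, adjusted p = 0.697 in edgeR). Its paralog Pappa2, a protease of IGFBP3 and IGFBP5, fell from 4.52 ± 0.615 to 0.364 ± 0.147 CPM (-3.57).

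Genes that carry the signal from IGF1R through PI3K, AKT and mTOR showed small changes. Of 27 tested, 13 were lower, 3 higher and 11 not called, with a median of -0.14 and a range from -0.96 to 0.39. Gab1, a docking adaptor, changed by -0.96 (SE 0.125), whereas Shc1, an adaptor to RAS, rose by 0.39, Akt2 by 0.34 and Mtor by 0.23. Of the receptor substrates, Irs2 was lower (51.7 ± 3.35 and 41.2 ± 1.49 CPM, log2 fold change -0.33, adjusted p = 0.000393 in edgeR). Irs1 was at 33.8 ± 2.50 and 31.0 ± 7.09 CPM (-0.12, adjusted p = 0.425 in edgeR), with the sign turning to 0.05 without FTO replicate 2, and the difference between Irs1 and Irs2 was not tested.

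FOXO factors, which AKT holds in check, and genes they drive were split, 9 higher and 5 lower of 17 tested, with a median of 0.26. Bcl6, a repressor, rose by 1.56 and Trim63, a muscle ubiquitin ligase, by 1.54, while Sesn3 changed by -1.13 and Foxo1 by -0.61. The listed FOXO factors did not move together. Foxo1 went from 8.76 to 5.71 CPM in the group means, Foxo3 from 35.7 to 43.8 CPM (0.30) and Foxo4 from 42.4 to 50.7 CPM (0.26). The growth hormone axis, which raises Igf1 in liver, had 4 genes higher and 2 lower of 6 tested. Jak2, the kinase of the growth hormone and many cytokine receptors, rose from 98.1 ± 3.62 to 808 ± 29.2 CPM (3.04), Cish by 1.54, Stat5a by 0.82 and Ghr by 0.40. Socs2 (-0.63) and Stat5b (-0.37) were lower.

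Imprinted growth genes, the class that Igf2 and Igf2r belong to in rodents, gave 2 higher, 3 lower and 2 not called of 7 tested. Of the 11 listed, 2 more had too few counts to be tested and 2 are not analysed here. Slc38a4 changed by -1.31, Peg3 by -1.05 and Grb10 by -0.59, while Plagl1 rose by 1.17 and Cdkn1c by 0.70. Among proteins that bind Igf2 mRNA or govern it, Hmga2 rose from 1.78 ± 0.504 to 6.05 ± 0.406 CPM (1.75), and Igf2bp3 fell from 32.5 ± 1.17 to 23.7 ± 0.266 CPM (-0.46). Igf2bp1 (0.24) and Igf2bp2 (0.16) did not pass.

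In the mannose 6-phosphate pathway, in which IGF2R sorts lysosomal enzymes, 3 were higher, 3 lower and 1 not called of 7. Gnptg and Gnptab, subunits of the enzyme that starts the tag, rose by 0.55 and 0.28. Gga2, a coat adaptor, changed by -0.67, and M6pr, the smaller mannose 6-phosphate receptor, by -0.64, a call that M6pr lost without Vector replicate 3 (adjusted p = 0.0832 in edgeR).

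Other proteins with an IGFBP domain had 4 higher and 6 lower of 11 tested, with a median of -0.42. Wisp2 fell from 541 ± 7.10 to 44.6 ± 2.18 CPM (-3.60) and Ctgf from 3666 ± 58.8 to 319 ± 28.3 CPM (-3.52), whereas Htra1, a secreted protease, rose 1.95-fold to 986 ± 24.4 CPM (0.96) and Nov from 1176 ± 20.4 to 2202 ± 86.7 CPM (0.90). Partners of IGFBPs at the cell surface and in matrix had 3 higher and 7 lower of 12 tested, with a median of -0.45 and a range from -1.96 to 4.22, the latter for Ptprz1, a receptor phosphatase with a mean of under 50 counts. The integrin subunits Itgb3 and Itgb1, bound by several IGFBPs or their complexes, changed by -1.96 and -1.38, and Itga5 rose by 0.34. Tmem219, a reported receptor of IGFBP3, was at 10.1 ± 1.19 and 12.3 ± 1.08 CPM with overlap (0.28, adjusted p = 0.0486 in edgeR) and did not pass with DESeq2 (adjusted p = 0.0998), limma-voom or the replicate block, or without Vector replicate 1 or 2 or FTO replicate 1 or 2.

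Markers of other cell types moved with the groups, in data where 33.2% of all genes tested were called higher and 32.8% lower. Cardiomyocyte markers summed to 1471 to 1502 CPM in Vector and 2220 to 2257 CPM in the libraries labelled FTO, with 8 higher and 1 lower of 9. Epicardial markers summed to 58.6 to 63.6 and 208 to 229 CPM, with 5 higher and 1 lower of 7. Msln (2.83 to 87.1 CPM in the group means) and Tbx18 (23.7 to 70.6 CPM) made up most of that rise. Wt1 went from 18.5 to 26.4 CPM, and Upk3b, the lower one, from 4.61 to 2.58 CPM. Endothelial markers summed to 19.3 to 19.8 and 43.3 to 45.0 CPM, with 3 higher and none lower of 4 tested, and Cldn5 was at 0 in all libraries. Mural markers summed to 1669 to 1722 and 1341 to 1421 CPM but were split, with 3 higher (Kcnj8, Abcc9 and Des) and 4 lower (Notch3, Mcam, Cspg4 and Pdgfrb) of 7 tested. Fibroblast markers were split too, with 5 higher and 5 lower of 10. The part of these cell types in the changes of the members was not tested.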

How the data were processed

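Per the file headers and values, the deposited files hold unnormalised read counts by gene symbol, with 1 file for each library. The submitters' processing notes name Trimmomatic and the genome build rn6. The aligner, counting program, annotation and use of strand are not given in the sources used here, so counts of overlapping genes are uncertain. Depth was 13178952 to 17857999 counts per library, and 3 counts were worth 0.168 to 0.227 CPM. Intervals cover counting error and replicate spread only. No use of molecular identifiers is given in the sources used here.

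Genes were kept with filterByExpr (minimum count 10) and libraries scaled with TMM factors (trimmed mean of M-values). Groups followed the genotype labels. They were compared over all genes by the two-sided quasi-likelihood test of edgeR 4.0.16 in R 4.3.3, with Benjamini-Hochberg adjustment, a threshold of 0.05 and no covariate. Each SE was the log2 fold change divided by the root of F. The procedure was tested on data simulated from the Vector means, with a fixed dispersion and far fewer changed genes than were called here. That run does not give the rate of false calls in these data. Alternatives were DESeq2 1.42.0, limma-voom (limma 3.58.1), other scalings and filters, a replicate block and leaving out each library. In each list, the 2 called genes with the largest rise and the 2 with the largest fall (mean of at least 50 counts) were named, with Insr, Irs1, Irs2, Igfbp1 and Pappa. A gene that this rule names is not reported here. Single marker genes of cell types were named after their values were seen. Members and lists were chosen with earlier results of these data known. Promoter sequences and gene spans came from RefSeq (GRCr8), another build than rn6.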

Additional observations from a re-analysis of the deposited data

How the results depend on the processing

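Over 13 alternative settings, the number of members past the adjusted threshold was 8 except with DESeq2 (6) and without Vector replicate 1 or without FTO replicate 2 (9 each). With DESeq2, Igf1 was at 0.51 (adjusted p = 0.0952) and Igf2r at -0.25 (adjusted p = 0.0743), and neither passed. When single libraries were left out, Igfbp7 ran from -0.138 to -0.0712, Irs1 from -0.226 to 0.0546, Pappa from -0.225 to 0.0914, and the ratio of summed ligand CPM from 0.978 to 1.34. The number called among the other insulin-family genes was 2, ran from 1 to 3 when single libraries were left out, and was 4 with no count filter, where more genes are tested. The cause of the other shifts was not tested. The number over all genes ran from 7795 to 9009.

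No pairing by replicate number was detected, as deviations of same-numbered libraries correlated at 0.00628, -0.0869 and 0.044 across genes. Such values cannot show whether the cultures were paired. A fit with a replicate block passed 8399 genes and 8 members. Among 49 single genes followed through 637 refits, 14 calls were lost, 2 gained and 3 signs turned. Depth limits Igfbp2, measured from 22 to 97 counts, and the genes at 0.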
